A study of Mus musculus with 4 samples.

Results

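The cells described here were enterocytes of the neonatal mouse small intestine with the highest summed share of UMIs for Apcdd1, Wdr49, Adora2b, Nr0b2 and Slc46a3. A UMI is a molecular barcode that marks 1 captured RNA molecule. Enterocytes were gated as cells with 1000 to 6000 genes, at least 2000 UMIs, a mitochondrial share under 20%, at least 3 of Fabp1, Fabp2, Apoa1, Apoa4, Alpi and Lct detected, and fewer than 2 of Mki67, Top2a, Ube2c, Cdk1 and Birc5 detected. In each library the 10% of gated cells with the highest 5-gene share were chosen by this rule, and the 50% with the lowest share served as the comparison. This gave 2692 high cells of 26941 gated enterocytes and of 36202 called cells in all. The high cells numbered 658 in ileum replicate 1, 759 in ileum replicate 2, 774 in jejunum replicate 1 and 501 in jejunum replicate 2. The low cells numbered 3294, 3799, 3871 and 2505 in the same order, in which every set of 4 values is given.

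Epithelium of the jejunum and ileum of 2 wild-type (WT) mice at postnatal day 6 was released with EDTA, dispersed with dispase and profiled by PIP-seq, a droplet method that barcodes single cells. Both regions came from each mouse, so that libraries with the same number share a mouse and a batch, and mouse and batch cannot be told apart. Sums over the high cells held 8221922, 7671610, 5177535 and 4993335 UMIs. With 2 mice, p-values measure the spread between 4 libraries that are not 4 animals.

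The labels call mouse 1 male and mouse 2 female. Xist stood at 537 and 467 CPM (UMIs of a gene per 1000000 UMIs of the same cells) in all called cells of the libraries numbered 1 and at 0.712 and 0.984 CPM in those numbered 2. Y-linked Eif2s3y stood at 0.0228 and 0.109 against 89.1 and 66.4 CPM. Both genes go against the labelled sexes, and sex entered no comparison. No cell barcode was shared between libraries among gated cells, and 2 of the 6 pairs of libraries shared 1 each among called cells.

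The name given to these cells, after Apcdd1 and Adora2b, did not describe most of their 5-gene UMIs. Slc46a3 supplied 88.9%, 76.4%, 69.1% and 63.3% of them, while Apcdd1 supplied 2.83% to 8.62% and Adora2b 1.83% to 9.81%. High cells in which Slc46a3 was the only gene of the 5 with a UMI made up 38.1% in ileum replicate 1 (exact 95% binomial interval 34.4 to 42.0). The share was 13.3% (10.97 to 15.9), 8.40% (6.54 to 10.6) and 3.59% (2.14 to 5.62) in the other 3 libraries. The intervals cover counting error only, and the shares were not equalised for depth. The cells are therefore named by their rule, as 5-gene-high cells or high cells.

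The gate required at least 3 of its 6 enterocyte genes, so their detection does not tell high from low cells. High cells, low cells and all gated cells alike detected a median of 5, 6, 6 and 6 of them. The 15 enterocyte markers that the gate did not use summed to 8157 to 10777 CPM in high cells and 6537 to 9406 CPM in low cells. Of these markers, 6 were higher and 6 lower in high cells, 40% each. Over all genes tested, 17.4% were higher and 15.8% lower, so the markers were split in both directions.

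Before weaning, enterocytes take up milk protein and fat and digest part of them inside the cell, in large lysosomes fed by apical endocytosis. Slc46a3 encodes a lysosomal membrane transporter. Adora2b is a receptor for extracellular adenosine that raises cAMP. Nr0b2 (SHP) is an orphan nuclear receptor induced by the bile acid receptor, and it represses transcription. Apcdd1 is a membrane glycoprotein that inhibits Wnt signalling, and Wdr49 is a WD-repeat protein. Enterocytes mature while they climb the villus and are shed at its tip.

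The promoters of the genes that chose the cells are shown because each gene also rose in cells chosen on the other 4, as given further on with its limits. Of the 5 genes, 4 had an entry in the RefSeq promoter table (build GRCm38.p6), while the counts were made on GRCm39 per the submitters' processing notes. Each window runs 5′ to 3′ on the gene's strand, from 250 bases before to 50 bases after the annotated start. Both strands were searched for 5 motifs, and capitals mark the matches. The motifs were AGGTCA (a half-site of nuclear receptors), CAAAGTCCA (an HNF4 motif), AGATAA (bound by GATA factors) and TTTATG (bound by CDX factors). The last was TATAAA, which has the letters of a TATA box. A match is to the letters alone, at any position, and its use was not tested.
Wdr49, chr3:75431188-75431487, minus strand: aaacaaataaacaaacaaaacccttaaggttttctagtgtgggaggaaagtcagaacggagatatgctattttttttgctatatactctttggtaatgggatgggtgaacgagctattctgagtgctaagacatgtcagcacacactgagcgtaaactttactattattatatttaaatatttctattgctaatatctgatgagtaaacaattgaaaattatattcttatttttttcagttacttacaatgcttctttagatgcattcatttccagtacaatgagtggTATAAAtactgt
Nr0b2, chr4:133553126-133553425, plus strand: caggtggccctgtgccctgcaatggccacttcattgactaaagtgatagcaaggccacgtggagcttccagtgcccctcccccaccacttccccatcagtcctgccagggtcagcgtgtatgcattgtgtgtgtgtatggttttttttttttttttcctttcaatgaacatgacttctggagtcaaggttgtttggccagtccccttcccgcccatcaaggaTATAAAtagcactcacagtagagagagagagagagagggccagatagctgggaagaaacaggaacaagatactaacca
Slc46a3, chr5:147894766-147895065, minus strand: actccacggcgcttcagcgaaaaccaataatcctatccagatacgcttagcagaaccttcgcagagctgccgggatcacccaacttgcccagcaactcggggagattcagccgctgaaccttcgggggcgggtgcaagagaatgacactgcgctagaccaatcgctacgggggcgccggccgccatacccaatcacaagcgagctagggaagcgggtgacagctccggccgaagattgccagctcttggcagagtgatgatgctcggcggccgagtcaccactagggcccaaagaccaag
Adora2b, chr11:62248734-62249033, plus strand: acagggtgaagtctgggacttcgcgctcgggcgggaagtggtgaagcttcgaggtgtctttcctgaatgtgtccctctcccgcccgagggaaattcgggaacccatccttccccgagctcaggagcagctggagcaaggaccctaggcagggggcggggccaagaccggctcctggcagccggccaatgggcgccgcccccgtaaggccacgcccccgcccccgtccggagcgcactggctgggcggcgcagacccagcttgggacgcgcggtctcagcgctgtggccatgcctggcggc

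The 4 windows differed in composition. GC content was 31.0% for Wdr49 and 49.7% for Nr0b2, against 60.0% for Slc46a3 and 70.0% for Adora2b, where the median of 32851 windows of this length was 52.7%. CpG dinucleotides numbered 3 in Wdr49, 3 in Nr0b2, 23 in Slc46a3 and 27 in Adora2b, against a median of 7. TATAAA lay 28 bases before the start in Nr0b2 (position -28) and at base 39 after it in Wdr49. None of the 5 motifs was found in the Slc46a3 and Adora2b windows. Over all windows, 13.6% held TATAAA, 16.3% AGGTCA, 11.9% TTTATG, 11.2% AGATAA and 0.475% CAAAGTCCA.

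Of the 5 other genes that rose most in high cells and are described further on, Enpp3 held TATAAA on the opposite strand at position -209. Gatm held AGGTCA on the opposite strand at position -156. Lgmn had 2 windows, of which 1 held TATAAA on the opposite strand at position -37. No motif was found in Cox6b2 and Ctsl.

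The levels of the 5 genes are what the cells were selected on, so they are given as a description without a test. Slc46a3 stood at 909, 1045, 1111 and 988 CPM in high cells and at 191, 233, 130.3 and 62.2 CPM in low cells. Apcdd1 stood at 28.9, 103, 105 and 135 CPM against 3.39, 17.6, 6.78 and 8.94 CPM, and was far lower in ileum replicate 1 than in the other 3 libraries. Wdr49 stood at 53.0, 146, 126 and 151 CPM against 7.25, 23.1, 16.0 and 14.2 CPM, again lowest in ileum replicate 1. For these 3 genes the lowest high group was above the highest low group.

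Adora2b stood at 18.7, 45.9, 158 and 130.0 CPM in high cells and at 1.87, 4.06, 23.6 and 15.2 CPM in low cells. Nr0b2 stood at 12.4, 27.2, 109 and 158 CPM against 4.33, 6.29, 20.7 and 28.2 CPM. For both genes the low cells of at least 1 jejunal library were above the high cells of ileum replicate 1, so the groups overlapped across regions but not within a library. At least 1 UMI of Adora2b was seen in 18.4%, 32.3%, 60.2% and 64.7% of high cells and 1.85%, 4.11%, 13.3% and 9.98% of low cells. After each cell was thinned to 2000 UMIs these shares were 4.26%, 8.43%, 28.3% and 23.8% against 0.334%, 0.842%, 4.37% and 2.16%.

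**Figure D1:**
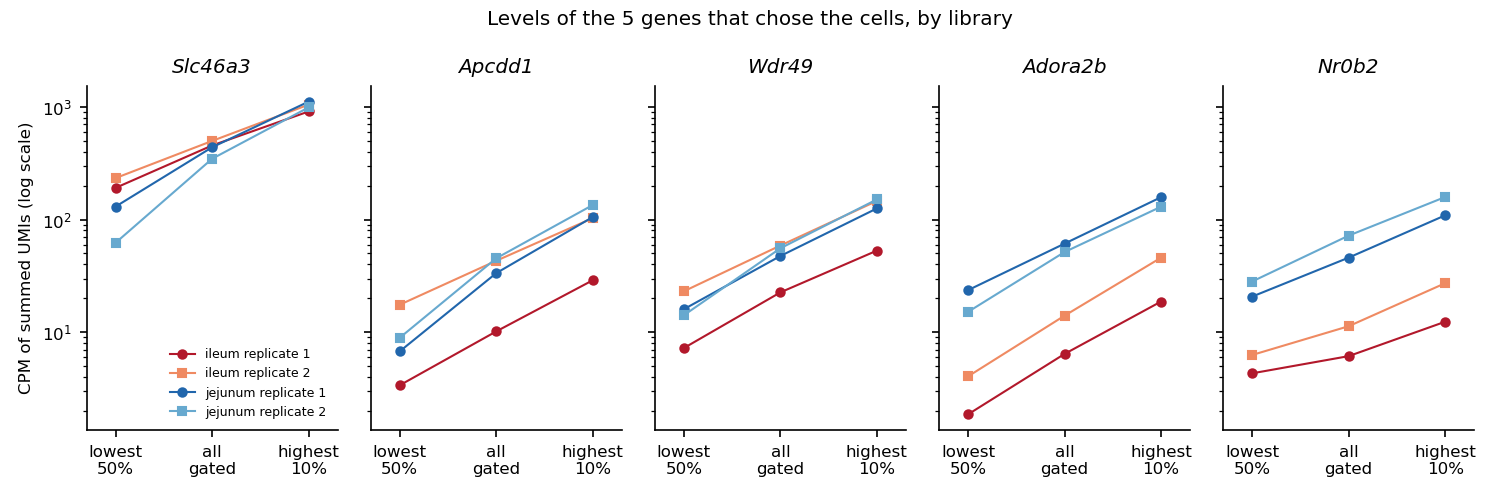
CPM of summed UMIs (log scale) of the 5 genes that chose the cells, in the lowest 50%, all gated and the highest 10% of enterocytes, with a line per library. Slc46a3 reached 909 to 1111 CPM in the highest 10%, and Adora2b and Nr0b2 were higher in both jejunal libraries than in both ileal ones.

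The 5-gene share was a continuous scale, and the 10% limit fell within it. In ileum replicate 1 the last 10 cells inside had shares of 881 to 883 CPM and the first 10 outside 877 to 881 CPM. In jejunum replicate 2 these were 1261 to 1268 CPM and 1252 to 1259.7 CPM. The lowest share of a high cell was 881, 1155, 1327 and 1261 CPM, and the highest of a low cell 439.8, 582, 507 and 370.1 CPM. Each share rested on few molecules. The median high cell held 14, 14, 10 and 15 UMIs of the 5 genes and the median low cell 1, 2, 1 and 1, and 16.9%, 13.6%, 20.9% and 24.9% of gated cells held none.

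Depth and mitochondrial share moved with the choice. Median UMIs per cell were 14025, 10140, 6121 and 10108 in high cells and 8856.5, 9327, 4307 and 5595 in low cells. The median mitochondrial share was 3.88%, 3.84%, 4.68% and 5.31% in high cells and 3.70%, 3.83%, 8.12% and 12.0% in low cells. The ileal groups were therefore close, and jejunal low cells lay above jejunal high cells. Cells were also chosen within deciles of depth, within deciles of mitochondrial share, and after thinning to 2000 UMIs. Of the cells chosen within depth deciles, 94.2%, 83.9%, 84.7% and 77.4% were among the high cells of the main choice. Within mitochondrial deciles these shares were 83.8%, 87.2%, 78.1% and 69.4%. After thinning they were only 41.2%, 41.6%, 50.1% and 58.7%.

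High and low cells were chosen again on the other 4 genes, so that each gene was read in cells it had not itself chosen. The 5 genes were chosen with earlier results of these data known, so a rise of the left-out gene is not independent evidence. All 5 left-out genes were higher in the high cells (edgeR's quasi-likelihood test on UMI sums, library as block, Benjamini-Hochberg adjustment over all genes of the fit). Apcdd1 rose from 5.63, 26.6, 14.2 and 16.6 CPM in low cells to 16.9, 66.3, 71.3 and 106 CPM in cells chosen without it, a log2 fold change of 2.09 ± 0.19 (SE; edgeR adjusted p = 3.73e-05). Adora2b rose from 3.22, 6.31, 36.8 and 23.2 CPM to 12.4, 32.7, 105 and 103 CPM, by 2.09 ± 0.14 (edgeR adjusted p = 3.85e-06). Wdr49 rose from 11.5, 33.8, 25.5 and 24.1 CPM to 33.5, 100.4, 86.2 and 123 CPM, by 1.91 ± 0.13 (edgeR adjusted p = 3.56e-06). Within every library the chosen cells were above the low cells for these 3 genes.

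Slc46a3 was read in cells chosen on the other 4 genes, of which 32.1%, 45.1%, 47.7% and 55.5% had also been chosen on all 5. Its level rose from 379.7, 363, 269 and 161 CPM to 572, 718, 700.4 and 693 CPM, by 1.34 ± 0.19 (edgeR adjusted p = 6.56e-04). In ileum replicate 1, 66.2% of gated cells held no UMI of the other 4 genes. The low cells of that library were therefore taken in file order among these ties. Nr0b2 rose from 5.95, 7.96, 30.5 and 41.4 CPM to 6.52, 19.3, 66.4 and 119 CPM, by 1.22 ± 0.17 (edgeR adjusted p = 4.87e-04), with little difference in ileum replicate 1. As background, the share of all genes called higher was 17.2% in the fit without Apcdd1, 17.3% without Adora2b, 16.8% without Wdr49, 13.4% without Slc46a3 and 17.2% without Nr0b2. When cells were chosen within mitochondrial deciles the 5 log2 fold changes lay between 1.00 and 1.81, each still past the threshold. With cells thinned to 2000 UMIs all 5 were smaller than in the main fits and still past the threshold. They were then 1.45 for Apcdd1, 1.40 for Wdr49, 1.24 for Adora2b, 1.09 for Nr0b2 and 0.74 for Slc46a3. In the fit without Slc46a3, 3636 genes were called, of which 3429 were also called with the 5-gene choice, all in the same direction.

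**Figure D2:**
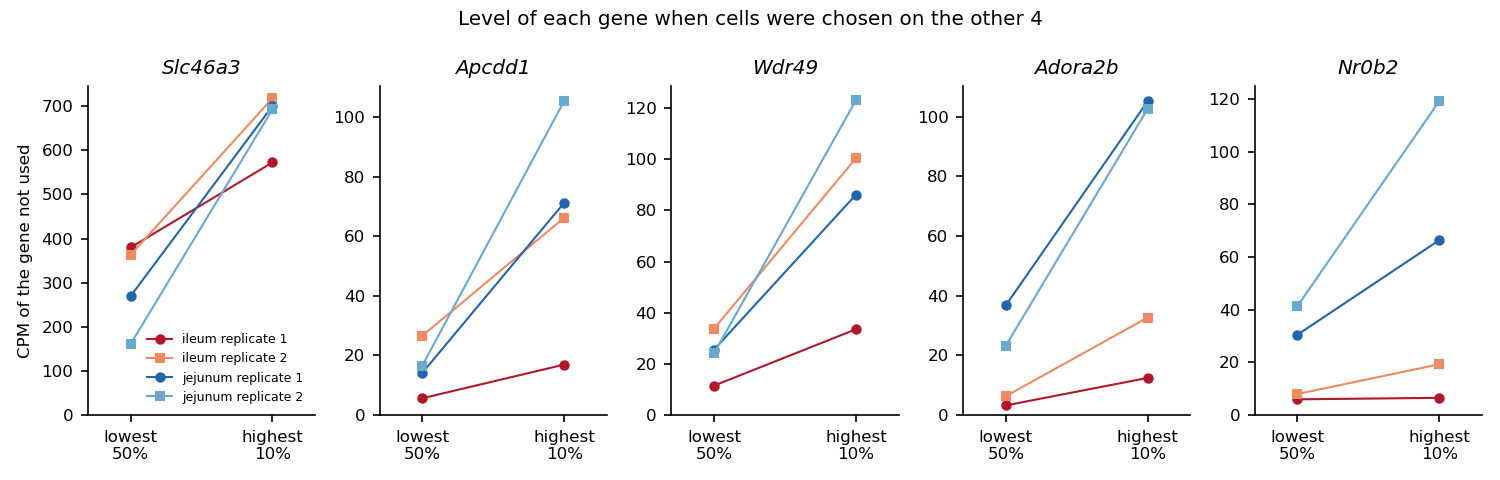
CPM of each gene in the lowest 50% and the highest 10% of gated enterocytes chosen on the other 4 genes, with a line per library. Every line rises, and the line of Nr0b2 in ileum replicate 1 rises least, from 5.95 to 6.52 CPM.

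Beyond the 5 genes, high and low cells differed widely. Of 14719 genes tested, 2565 (17.4%) were higher and 2321 (15.8%) lower in high cells at an adjusted p under 0.05 (edgeR, library as block). Of these, 393 rose and 696 fell by more than 1 log2 unit. The genes were measured in the same cells that the 5 genes had sorted, so the tests describe what went with the choice. The groups did not overlap over the 4 libraries for 16.1% of genes tested, and for 20 of the 25 genes named next, which were ranked by fold change.

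Lysosomal proteases and surface hydrolases were among the genes furthest up. Lgmn, the asparaginyl endopeptidase that processes lysosomal cathepsins, stood at 7124, 5449, 4155 and 2504 CPM in high cells and at 2166.4, 1868, 906 and 362 CPM in low cells. Its log2 fold change was 2.17 ± 0.18 (edgeR adjusted p = 1.81e-05), and the groups did not overlap although both were highest in the ileum. Ctsl, the lysosomal protease cathepsin L, stood at 2839.6, 3664, 4258 and 3838 CPM against 726, 1039.6, 1016 and 609 CPM, a change of 2.24 ± 0.13 (edgeR adjusted p = 2.82e-06), also without overlap.

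Enpp3, an ectoenzyme that hydrolyses extracellular nucleotides, stood at 570.2, 431, 417 and 298 CPM in high cells and at 104, 109, 83.6 and 46.7 CPM in low cells, a log2 fold change of 2.47 ± 0.11 (edgeR adjusted p = 6.30e-07). Enpp7, the alkaline sphingomyelinase of the brush border, stood at 62.9, 49.4, 99.1 and 101 CPM against 14.8, 13.2, 31.5 and 18.9 CPM, with a change of 2.12 ± 0.12. Bst1, a surface ADP-ribosyl cyclase, stood at 166, 216, 453 and 379 CPM against 48.5, 77.3, 136 and 88.3 CPM, with a change of 1.88 ± 0.10. These 3 genes did not overlap between groups, and Enpp7 and Bst1 were higher in the jejunum in both groups.

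Cox6b2, a cytochrome c oxidase subunit best known from testis, rose from 11.2, 14.5, 5.98 and 4.26 CPM to 59.6, 55.4, 38.4 and 29.6 CPM, by 2.52 ± 0.14 on the log2 scale. Gatm, which catalyses the first step of creatine synthesis, stood at 409.5, 87.5, 159 and 107 CPM in high cells and at 132, 46.6, 17.5 and 9.05 CPM in low cells, a change of 2.35 ± 0.35. Ileum replicate 1 was far above the other libraries in both Gatm groups, which overlapped. Msrb3, a methionine sulfoxide reductase, changed by 1.84 ± 0.27 and Slc38a3, a glutamine transporter, by 1.80 ± 0.16, and both overlapped between groups and were highest in the ileum. Igsf11, an adhesion protein, changed by 1.97 ± 0.10 and was highest in ileum replicate 2 in both groups, which overlapped. Ifit3, an interferon-induced gene, changed by 1.82 ± 0.10, the receptors Gpr151 and Gpr50 by 1.88 ± 0.15 and 1.79 ± 0.18, Zcchc24 by 1.86 ± 0.19 and Tmem140 by 1.80 ± 0.11, each without overlap.

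**Figure D3:**
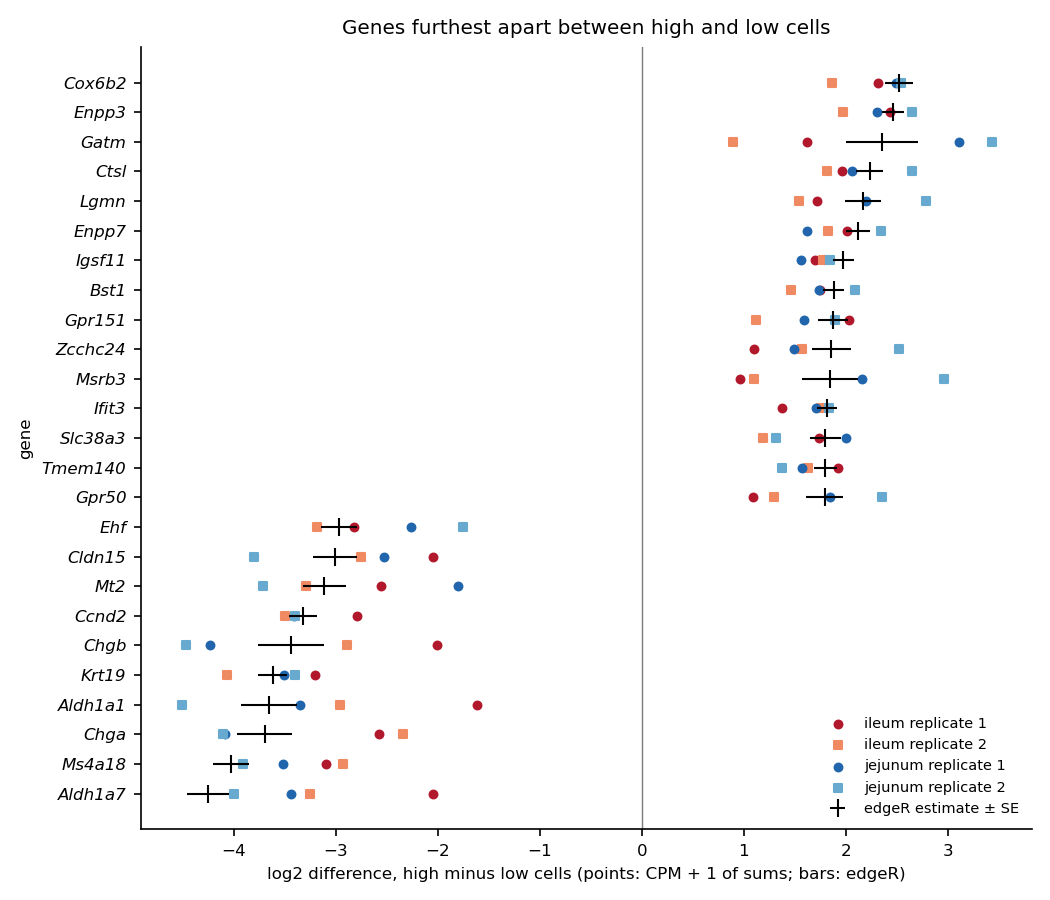
Log2 difference between high and low cells for the 15 genes furthest up and the 10 furthest down, with a point per library (log2 of CPM + 1) and the edgeR estimate ± SE. All points lie on the same side of 0 as their estimate, and Aldh1a1, Gatm and Chgb spread most between libraries.

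The genes furthest down included genes of less mature and of other epithelial cells. Krt19, a keratin of crypt epithelium, stood at 5.35, 4.43, 6.76 and 11.6 CPM in high cells and at 57.5, 89.8, 87.3 and 132 CPM in low cells, a log2 fold change of -3.62 ± 0.14 (edgeR adjusted p = 4.17e-07). Ccnd2, a cyclin of the G1 phase, stood at 7.66, 4.95, 6.18 and 7.81 CPM against 59.1, 66.5, 75.2 and 91.8 CPM, a change of -3.32 ± 0.14. Both were low in all 4 high groups and did not overlap. Aldh1a1, a retinaldehyde dehydrogenase, stood at 1.46, 2.61, 4.44 and 4.41 CPM against 6.52, 27.1, 54.7 and 122 CPM (-3.66 ± 0.27), and its paralogue Aldh1a7 changed by -4.26 ± 0.21. Reads of such similar copies can be assigned to either gene, so their separate values are uncertain.

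Mt2, a metallothionein that binds zinc, stood at 3.53, 33.0, 5.41 and 25.4 CPM in high cells and at 25.6, 333, 21.4 and 346 CPM in low cells (-3.11 ± 0.21). Its level followed the mouse in both groups, which overlapped. Ms4a18 (-4.03 ± 0.18), the claudin Cldn15 (-3.00 ± 0.22) and the epithelial transcription factor Ehf (-2.97 ± 0.18) also fell. Chga (-3.70 ± 0.27) and Chgb (-3.44 ± 0.33) encode the chromogranins of enteroendocrine granules. Cells with 3 or more of 10 enteroendocrine markers numbered 41, 46, 53 and 45 among low cells and 5, 1, 0 and 1 among high cells. With these cells left out, Chga changed by -0.07 (edgeR adjusted p = 0.905) and Chgb by 0.13 (edgeR adjusted p = 0.7), while 4783 genes were called in all against 4886.

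Across deciles of the 5-gene share, genes followed graded and stepped courses, described here without a test. Ctsl stood at 362, 381, 701 and 421 CPM in the lowest decile, at 1230.4, 1773, 1740.0 and 998 CPM in the fifth and at 2839.6, 3664, 4258 and 3838 CPM in the highest. Its level thus climbed through the middle of the scale as well as at its top. Of the 15 genes furthest up, 8 were highest in the top decile in all 4 libraries. Krt19 stood at 199.6, 347, 183 and 221 CPM in the lowest decile, at 9.81, 9.53, 20.2 and 60.5 CPM in the fourth and at 5.35, 4.43, 6.76 and 11.6 CPM in the highest. Ccnd2 stood at 212, 288, 148 and 145 CPM, 15.8, 14.4, 22.8 and 44.6 CPM and 7.66, 4.95, 6.18 and 7.81 CPM in the same deciles. In every library both were highest in the lowest 2 deciles, and 0 of the 10 genes furthest down was lowest in the top decile in all 4 libraries. Lypd8, an antibacterial protein secreted by epithelium, fell step by step from 1044, 873, 967 and 709 CPM in the third decile to 221, 155, 68.2 and 32.8 CPM in the highest. The lowest deciles hold the cells without a UMI of the 5 genes, which have no order among themselves.

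**Figure D4:**
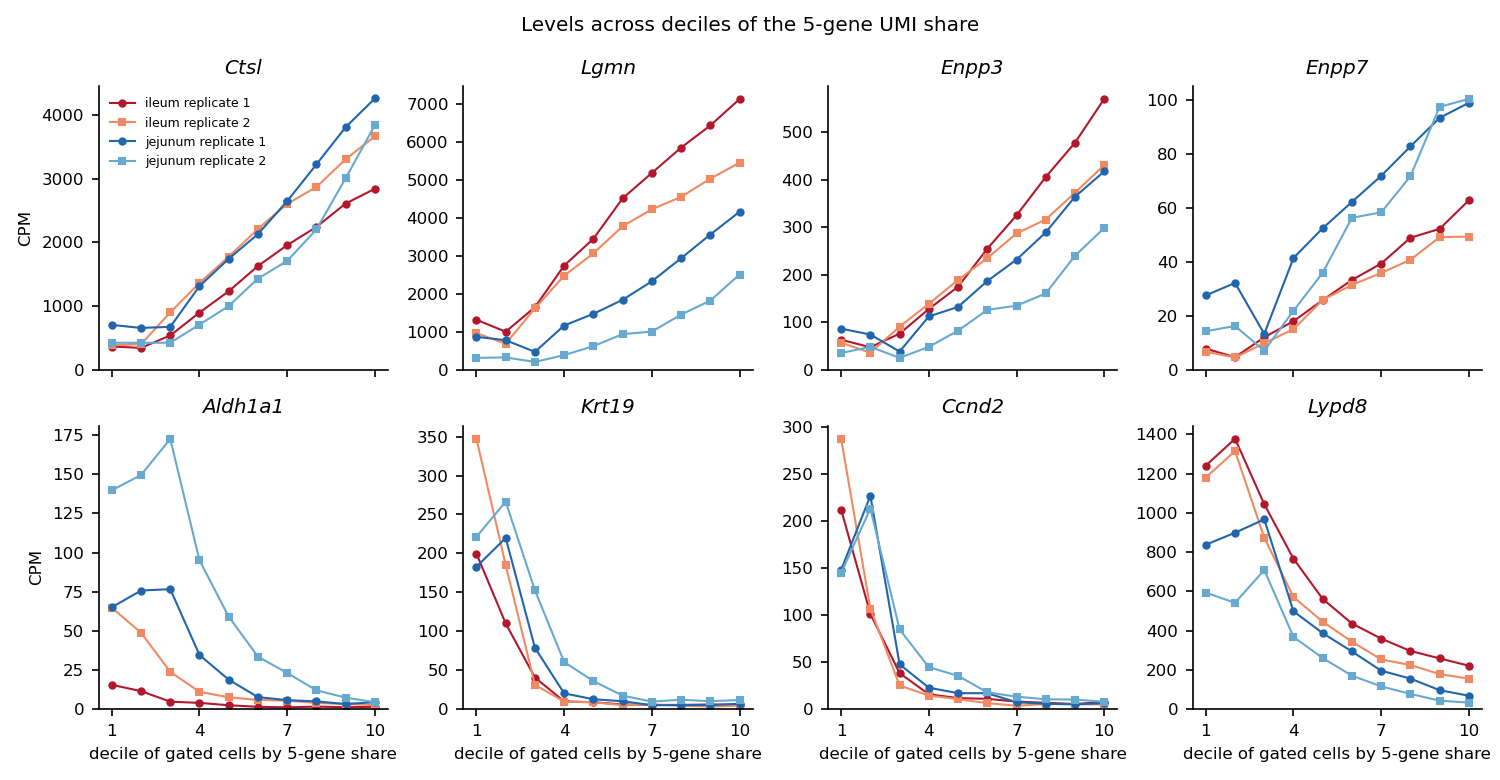
CPM of genes across deciles of gated enterocytes by 5-gene share, with a line per library. Ctsl, Lgmn, Enpp3 and Enpp7 climb through the upper deciles, Krt19 and Ccnd2 are highest in the lowest 2 deciles, Lypd8 declines from the third decile on, and Aldh1a1 is highest in jejunum replicate 2 through most of the scale.

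Lysosomal genes were higher in high cells. Slc46a3, itself the gene of a lysosomal membrane transporter, supplied 63.3% to 88.9% of the UMIs that high cells were ranked on. The counts for the lysosomal lists, and for the proton pump and endocytic lists that follow, are therefore not independent of the choice. Counts for these lists in cells chosen without Slc46a3 are not given here. Of 32 lysosomal hydrolases tested, 28 were higher and 0 lower, with a median log2 fold change of 0.83 against 0.00 over all genes tested, where 17.4% were higher. Their summed level was 26500.1 to 35241 CPM in high cells and 11587 to 20299 CPM in low cells, 1.74 to 2.29 times higher within a library. Besides Ctsl and Lgmn, Naglu, which degrades heparan sulfate, changed by 1.33 ± 0.14 and Galns, a sulfatase of keratan sulfate, by 1.22 ± 0.09. Ctsl, Lgmn, Naglu and Galns, the examples of largest change, kept direction and call when cells were chosen without Slc46a3. Of 23 lysosomal membrane proteins and transporters, 18 were higher and 0 lower, with a median of 0.58. The list as written also held Slc46a1 (1.20 ± 0.11), the proton-coupled folate transporter of the Slc46a3 family, whose place in the cell was not measured. Slc46a1 stood at 67.7, 58.5, 76.3 and 81.1 CPM in high cells and 30.7, 34.9, 27.7 and 39.8 CPM in low cells. The amino acid exporter Slc66a1 changed by 0.86 ± 0.08 and the cation channel Mcoln3 by 0.83 ± 0.09.

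Of 16 vacuolar proton pump genes, which acidify the lysosome, 10 were higher and 0 lower, with a median log2 fold change of 0.32. The shares over all genes tested were 17.4% higher and 15.8% lower. Atp6v0e changed by 0.98 ± 0.12 and Atp6ap1 by 0.97 ± 0.09. Of 20 genes of the apical endocytic complex, 10 were higher and 0 lower, with a median of 0.24. Lrp2, the megalin receptor, stood at 85.0, 53.6, 9.85 and 2.40 CPM in high cells and at 27.1, 19.6, 4.58 and 1.54 CPM in low cells (1.52 ± 0.14), and was scarce in the jejunum in both groups. Fcgrt, the neonatal Fc receptor that carries milk antibodies, stood at 1613, 1927, 5478 and 4870.3 CPM against 623, 769, 3356 and 3228 CPM (1.11 ± 0.15), with the jejunum above the ileum. Rab11a, a GTPase of recycling endosomes, changed by 0.73 ± 0.11, and Amn, the membrane anchor of cubilin, by 0.65 ± 0.11. Cubn, cubilin itself, changed by 0.37 ± 0.11 (edgeR adjusted p = 0.0265), a call lost without ileum replicate 2 (0.0719), jejunum replicate 1 (0.0503) or jejunum replicate 2 (0.114).

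Of 22 genes of fat absorption and chylomicron assembly, 13 were higher and 2 lower, with a median log2 fold change of 0.42. Over all genes tested, 17.4% were higher and 15.8% lower. The list includes Fabp1, which the gate used to admit cells, so its count is not independent of the gate. Cd36, a fatty acid receptor, stood at 6.45, 4.43, 276 and 281 CPM in high cells and at 2.10, 1.96, 85.1 and 90.2 CPM in low cells (1.70 ± 0.11), nearly all of it jejunal. Apob, the structural protein of chylomicrons, stood at 1614, 2162, 2343 and 2423 CPM against 929, 1119, 1548 and 1318 CPM (0.92 ± 0.10), without overlap. Apoc2, an activator of lipoprotein lipase, changed by 1.28 ± 0.22. The 2 lower genes were Plin2 (-0.26 ± 0.08), a coat protein of lipid droplets, and Dgat1 (-0.24 ± 0.08), a triglyceride-forming enzyme, which were named after their values were seen.

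Of 21 peptidases and peptide or amino acid transporters, 10 were higher and 4 lower, with a median log2 fold change of 0.27. The shares over all genes tested were 17.4% higher and 15.8% lower. Ace, a dipeptidase of the brush border, stood at 754, 718, 1462 and 1403 CPM in high cells and at 267, 326, 708 and 581 CPM in low cells (1.35 ± 0.10), without overlap. The peptide transporter Slc15a1 changed by 0.78 ± 0.08, and the amino acid transporter Slc6a20a by -1.85 ± 0.22. The aminopeptidase Anpep changed by -0.85 ± 0.25 (edgeR adjusted p = 0.0237), a call lost without ileum replicate 1 (0.0807), jejunum replicate 1 (0.0991) or jejunum replicate 2 (0.0814).

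**Figure D5:**
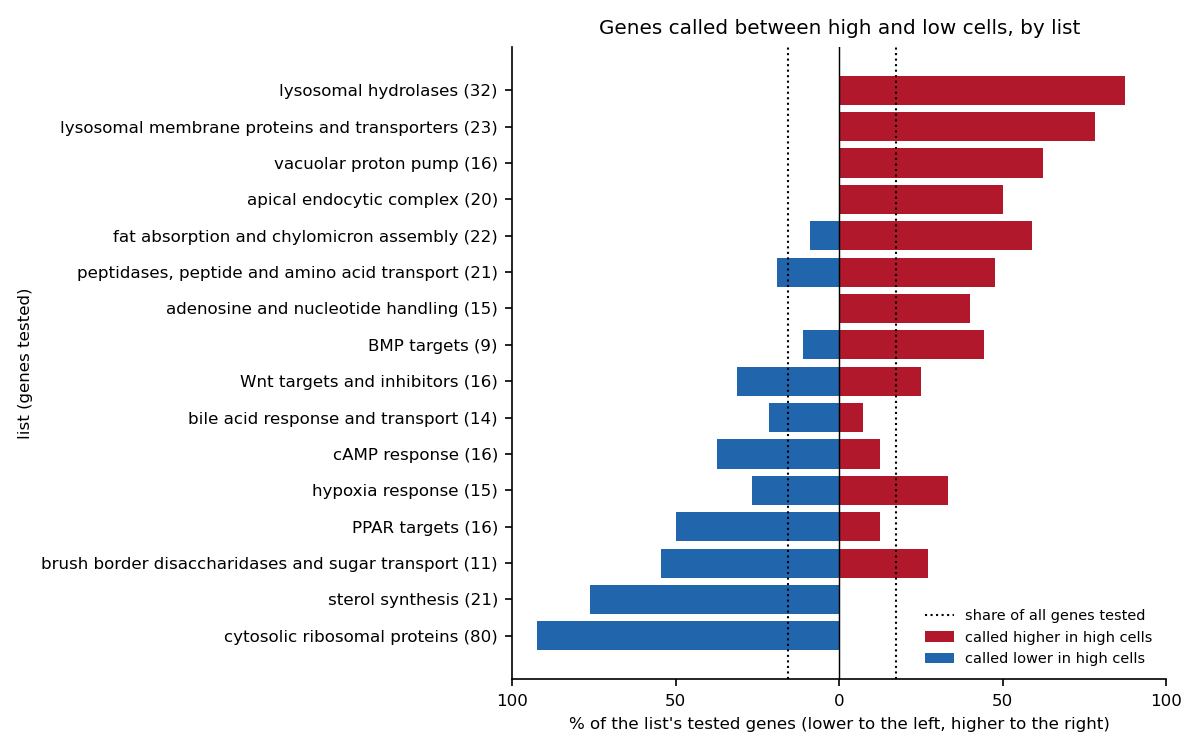
Percentage of each list's tested genes called lower (left) or higher (right) in high cells than in low cells, with dotted lines at the shares over all genes tested. Lysosomal hydrolases reach 87.5% higher and cytosolic ribosomal proteins 92.5% lower, against 17.4% and 15.8% of all genes.

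The pathways that the 5 genes belong to were mixed, and their counts stand against 17.4% higher and 15.8% lower over all genes tested. Of 15 adenosine and nucleotide genes other than Adora2b, 6 were higher and 0 lower, with a median log2 fold change of -0.02. Enpp3 led them, followed by the AMP deaminase Ampd3 (1.10 ± 0.18) and xanthine dehydrogenase, Xdh (0.66 ± 0.10). When cells were chosen without Slc46a3, Ampd3 changed by 0.41 and did not pass (edgeR adjusted p = 0.0982). Nt5e, the ectoenzyme that makes adenosine from AMP and was named for that role after its values were seen, stood at 10.5, 3.13, 2.32 and 1.20 CPM in high cells and at 7.31, 4.24, 2.55 and 5.00 CPM in low cells. Its difference of -0.17 ± 0.32 did not pass (edgeR adjusted p = 0.729). Of 16 cAMP response genes, 2 were higher and 6 lower. The nuclear receptor Nr4a1 changed by -1.84 ± 0.17 and the chloride channel Cftr by -0.65 ± 0.16, a call lost without jejunum replicate 1 (edgeR adjusted p = 0.0709), against 0.71 ± 0.13 for Pck1, an enzyme of glucose production.

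Of 16 Wnt targets and inhibitors other than Apcdd1, 4 were higher and 5 lower. Axin2, a target and negative regulator of Wnt signalling, stood at 51.2, 36.5, 33.8 and 22.8 CPM in high cells and at 18.2, 18.8, 14.5 and 8.68 CPM in low cells (1.37 ± 0.11), without overlap. The other higher genes, named after their values were seen, were Notum (0.99 ± 0.15), Ephb3 (1.19 ± 0.27) and Nkd1 (1.08 ± 0.36). Sox9, a crypt transcription factor, stood at 8.15, 19.7, 10.8 and 11.01 CPM against 27.7, 35.7, 37.8 and 38.3 CPM (-1.40 ± 0.17), and Znrf3, a ligase that removes Wnt receptors, changed by -1.01 ± 0.14. Of 9 BMP targets, 4 were higher and 1 lower. Id3 changed by 1.25 ± 0.23 and Id2 by 0.90 ± 0.12, both inhibitors of helix-loop-helix factors, and the receptor Bmpr1a by -0.52 ± 0.11. Bmpr1a did not pass when cells were chosen without Slc46a3 (edgeR adjusted p = 0.0586).

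Of 14 bile acid genes other than Nr0b2, 1 was higher and 3 were lower, with a median log2 fold change of -0.09. These shares, 7.14% and 21.4%, lay below and near the 17.4% and 15.8% over all genes. Fabp6, the ileal bile acid carrier, stood at 42.1, 90.1, 0.579 and 0.2003 CPM in high cells and at 394, 582, 0.438 and 0.479 CPM in low cells (-2.77 ± 0.21), so that its fall was an ileal one, and the call was lost with DESeq2 (DESeq2 adjusted p = 0.071). Nr1h4 (FXR), the bile acid receptor, stood at 192, 206, 157 and 155 CPM against 313, 344, 250.3 and 207 CPM (-0.52 ± 0.08), without overlap. The sterol exporter Abcg8 changed by 0.47 ± 0.08. The bile acid transporters Slc10a2, Slc51a and Slc51b, named for their role after their values were seen, differed by -0.21 ± 0.20, 0.27 ± 0.18 and -0.09 ± 0.10 and did not pass.

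Of 80 cytosolic ribosomal proteins tested, 74 were lower and 0 higher, with a median log2 fold change of -0.80, against 15.8% of all genes lower. Their summed share was 3.44%, 2.88%, 2.52% and 2.25% of UMIs in high cells and 5.57%, 5.48%, 4.43% and 4.36% in low cells. Rps19 stood at 234, 127, 79.8 and 81.9 CPM against 550.0, 535, 406 and 455 CPM (-1.91 ± 0.18), without overlap. Ribosomal protein genes have many processed copies, so single values are uncertain. Of 21 sterol synthesis genes, 16 were lower and 0 higher, with a median of -0.63, among them Fdps (-1.20 ± 0.21), Idi1 (-1.16 ± 0.20) and Lss (-1.12 ± 0.15). Of 16 PPAR targets, 2 were higher and 8 lower, with -1.06 ± 0.18 for Pdk4, a kinase that spares glucose, and -0.42 ± 0.08 for Hadha, an enzyme of fatty acid oxidation.

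Genes that mark villus position did not all move in the same direction, where 17.4% of all genes were higher and 15.8% lower. Of 8 villus base genes, 4 were lower and 0 higher, including Lypd8 (-2.80 ± 0.26), the immunoglobulin transporter Pigr (-2.31 ± 0.21) and Dmbt1 (-1.97 ± 0.18), a mucosal scavenger receptor. Of 14 villus tip genes, 4 were higher and 3 lower. Klf4, a factor of terminal differentiation, stood at 276, 251, 183 and 210.5 CPM in high cells and at 172, 143, 90.9 and 81.7 CPM in low cells (1.07 ± 0.11), without overlap. Apoa4, a gate gene and apolipoprotein, changed by 0.77 ± 0.14. Krt20, a keratin of the villus tip, went the other way, at 5.11, 3.26, 12.2 and 25.03 CPM against 12.3, 15.2, 39.3 and 91.0 CPM (-1.65 ± 0.14).

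Of 11 disaccharidase and sugar transport genes, 3 were higher and 6 lower, against 17.4% and 15.8% of all genes, which is the background for the next lists too. The maltase Mgam stood at 248, 176, 81.3 and 82.5 CPM in high cells and at 932, 683, 286 and 221 CPM in low cells (-1.67 ± 0.10). Lct, lactase and a gate gene, changed by 0.94 ± 0.12 and the glucose exporter Slc2a2 by 1.11 ± 0.10. All 6 gate genes, which had been used to admit both groups of cells, were higher, with a median log2 fold change of 0.85. The call for Fabp1 was lost with DESeq2 (DESeq2 adjusted p = 0.0542) and without ileum replicate 2 (edgeR adjusted p = 0.0991). Among 25 intestinal transcription factors, 6 were higher and 2 lower. Onecut2 changed by -1.002 ± 0.26, a call lost without jejunum replicate 1 (edgeR adjusted p = 0.118), without jejunum replicate 2 (-0.57, edgeR adjusted p = 0.331) and with DESeq2 (-0.52, DESeq2 adjusted p = 0.555). Of 15 hypoxia response genes, 5 were higher and 4 lower, among them Pfkfb3 (1.01 ± 0.10), a stimulator of glycolysis, and Ndrg1 (-2.28 ± 0.12), a stress-induced gene. Of 16 immediate early and heat shock genes, 3 were higher and 4 lower, with 1.07 ± 0.09 for the phosphatase Dusp1 and -0.52 ± 0.11 for the transcription factor Egr1.

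Markers of other cells differed by list and by region, and their part in the results was not tested apart from the enteroendocrine cells above. Enteroendocrine markers summed to 45.3 to 67.4 CPM in high and 90.5 to 306 CPM in low cells, with 7 of 10 tested lower. Immune markers summed to 2.20 to 8.50 against 6.31 to 17.6 CPM, with 2 of 4 lower. Stem markers summed to 49.4 to 64.5 against 49.4 to 143 CPM, with 4 of 5 lower and Axin2 higher. Cycling markers that the gate did not use summed to 189 to 239.6 against 267 to 291 CPM, with 6 of 11 lower. Goblet markers summed to 70.9 to 259 against 139 to 170.5 CPM, with 3 of 7 lower. In high cells the goblet sum was 1.52, 1.44, 0.508 and 0.510 times that of low cells, so that it was higher in both ileal and lower in both jejunal libraries, and 2 of 7 had a called interaction with region, against 0.537% of all genes. The stem sum stood at 1.31, 0.893, 0.429 and 0.436 times that of low cells, higher in ileum replicate 1 alone. Paneth markers (13.0 to 28.0 against 18.4 to 55.0 CPM, 2 of 4 lower) were lower in sum in every library. M cell markers (99.5 to 136 against 93.3 to 115 CPM, 1 of 2 higher, Marcksl1) were higher in sum, by 1.18, 1.21, 1.19 and 1.07 times. Of the tuft markers (69.2 to 93.2 against 93.7 to 111 CPM) 0 of 4 were called, and of the stromal and endothelial markers (4.17 to 7.53 against 6.23 to 13.5 CPM) 0 of 2. No erythroid marker passed the count filter (0 to 1.04 against 0.266 to 0.438 CPM). In the high cells of all 4 libraries Gp2, an M cell marker, Il25, a tuft marker, and Lyz2, a myeloid marker, were at 0 UMIs.

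Free RNA can add UMIs to any droplet. Cells with 3 or more immune markers numbered 6, 2, 4 and 3, too few for a background share. A UMI of Slc46a3 was seen in 50% of the 6 in ileum replicate 1, and whether immune cells make the 5 genes themselves was not tested. Cycling cells outside the gate, numbering 516, 503, 481 and 457 with median depths of 6974.5, 9366, 6626 and 8006 UMIs, held Slc46a3 at 194, 253, 143 and 98.0 CPM, near the low enterocytes except in jejunum replicate 2, where they were higher. A UMI of Adora2b was seen in 1.74%, 5.37%, 10.6% and 10.1% of them, shares close to those of low cells and below those of high cells.

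Adora2b and Nr0b2 differed between regions when all gated enterocytes were compared, a comparison in which the 10% limit had no part. Adora2b stood at 6.42 and 14.03 CPM in ileal and at 61.1 and 51.5 CPM in jejunal enterocytes, a log2 fold change of -2.53 ± 0.40 (edgeR adjusted p = 0.0287, ileum over jejunum). Nr0b2 stood at 6.15 and 11.3 against 45.9 and 72.0 CPM, a change of -2.83 ± 0.40 (edgeR adjusted p = 0.0244). Neither gene overlapped between regions, but 2 libraries per region separate by random order alone with a probability of 0.333. The share of all genes without overlap between regions was not counted. Apcdd1 stood at 10.2 and 43.1 CPM in ileal against 33.5 and 45.3 CPM in jejunal enterocytes, and its difference of -0.63 ± 0.65 did not pass (edgeR adjusted p = 0.552). Wdr49 (-0.41 ± 0.45, edgeR adjusted p = 0.582) and Slc46a3 (0.20 ± 0.16, edgeR adjusted p = 0.446) did not pass either.

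As background, 7.13% of 19921 genes were called between regions in gated enterocytes, 1421 in all, and 3038 with the mouse as a paired block. Without a count filter the calls for Adora2b (edgeR adjusted p = 0.0803) and Nr0b2 (0.0714) were lost, as was that for Nr0b2 without ileum replicate 1 (0.0745). Without ileum replicate 2, Apcdd1 changed by -2.08 (edgeR adjusted p = 0.0483). Leaving out a library leaves 1 sample in a region, which is then assumed to vary like the other region.

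Within the high cells, 303 of 12607 genes (2.4%) were higher in ileal and 423 (3.36%) in jejunal high cells, 726 in all and 1855 with the mouse as a paired block. Mfsd2a, a lysophospholipid transporter, stood at 0.487 and 0.261 CPM in ileal against 144 and 483 CPM in jejunal high cells (-9.80 ± 0.84, edgeR adjusted p = 0.00788). Serpina1a, an antitrypsin gene whose similar copies make its value uncertain, stood at 2.19 and 3.52 against 349 and 439 CPM (-7.27 ± 0.30). Cd36 stood at 6.45 and 4.43 against 276 and 281 CPM (-5.83 ± 0.22). Cyp2d26, a cytochrome P450, had 0 and 5 ileal UMIs against 109 and 445 jejunal ones. Cntnap1, an adhesion protein, had 2 ileal UMIs against 233, a CPM ratio of 182 (exact 95% counting interval 49.8 to 1512).

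On the ileal side of the high cells, Fabp6 stood at 42.1 and 90.1 CPM in ileal against 0.579 and 0.2003 CPM in jejunal high cells (7.18 ± 0.63, edgeR adjusted p = 0.00823). Scd2, a fatty acid desaturase, stood at 152 and 16.4 against 0.773 and 0 CPM, and the imprinted noncoding RNA Meg3 at 216 and 38.7 against 1.74 and 0.601 CPM. Both were much higher in ileum replicate 1 than in ileum replicate 2. Il18r1, a subunit of the interleukin 18 receptor, had 1 jejunal UMI against 625 ileal ones, a ratio of 400.0 (exact 95% counting interval 71.5 to 15823). Cysltr1, a leukotriene receptor, had 3 against 332, a ratio of 70.8 (24.0 to 345).

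These regional calls rested on single libraries in part. Without jejunum replicate 2, 23 genes were called, and Il18r1 (edgeR adjusted p = 0.189), Scd2 (0.267), Fabp6 (0.0775), Meg3 (0.195) and Cyp2d26 (0.098) did not pass. Without jejunum replicate 1 there were 163, and Il18r1 (0.115), Scd2 (0.139) and Meg3 (0.0943) did not pass. Without ileum replicate 2 the count was 2211.

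Of the genes that separated high from low cells, Enpp7 (-0.99 ± 0.17, edgeR adjusted p = 0.0273) and Bst1 (-1.28 ± 0.20, edgeR adjusted p = 0.0209) were higher in jejunal than in ileal high cells. Ctsl (-0.47 ± 0.20), Lgmn (0.76 ± 0.27), Enpp3 (0.32 ± 0.21) and Gatm (0.73 ± 0.59) did not pass in this fit, which leaves out the pairing by mouse. With the mouse as a block Lgmn passed (0.79 ± 0.19, edgeR adjusted p = 0.0201), while Ctsl (-0.49 ± 0.19, edgeR adjusted p = 0.128), Enpp3 (0.33 ± 0.15, edgeR adjusted p = 0.174) and Gatm (0.40 ± 0.31, edgeR adjusted p = 0.443) did not. Over all genes 2.4% were higher in ileal and 3.36% in jejunal high cells. Of 21 sterol synthesis genes, 10 were higher in ileal high cells and 0 lower. Of 22 fat absorption genes, a list that includes the gate gene Fabp1, 10 were higher in jejunal high cells and 0 in ileal ones. Of 32 lysosomal hydrolases, 4 were higher on the ileal and 1 on the jejunal side. With the mouse as a paired block these counts were 12 ileal sterol genes, 13 jejunal fat absorption genes and 8 ileal and 1 jejunal hydrolases, against 6.50% and 8.21% of all genes. Of the 6 jejunal and 7 ileal genes that the study chose on these samples, 6 and 6 were called in that direction within high cells, which is not independent evidence.

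The difference between high and low cells depended on region for few genes. Of 14719 genes, 79 (0.537%) had a more positive difference in the ileum and 61 (0.414%) a more negative difference (edgeR, interaction of cell group and region). Fabp1, the liver-type fatty acid binding protein and a gate gene, stood at 213, 2259.6, 6484 and 6499 CPM in high cells and at 41.9, 539, 5794 and 5646 CPM in low cells. It thus differed widely in the ileum and little in the jejunum, an interaction of 2.05 ± 0.17 (edgeR adjusted p = 1.66e-05). Gatm had the reverse pattern, with log2 differences of 1.62 and 0.90 in the ileal libraries against 3.11 and 3.43 in the jejunal ones (-2.04 ± 0.22, edgeR adjusted p = 1.59e-04). Ephb2, a receptor that positions epithelial cells, stood at 15.9, 36.0, 110.3 and 218 CPM in high cells and at 52.1, 59.3, 84.7 and 126 CPM in low cells, so that it was lower in ileal and higher in jejunal high cells (-1.73 ± 0.24, edgeR adjusted p = 0.00223).

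Of the 32 lysosomal hydrolases, 1 had a called interaction, a difference smaller in the ileum. The mitochondrial share also differed by region, with jejunal but not ileal low cells above their high cells. Its part in the interactions was not tested. With cells chosen within mitochondrial deciles 30 genes were called, and with a mitochondrial limit of 10% 32 genes. Fabp1, Gatm, Gstm3, Ephb2 and Serpina1b kept their calls under both. Phgr1, Chgb, Plp2, Plaat3 and Sh3tc2, also among the 10 genes of largest interaction, lost theirs within mitochondrial deciles.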

How the data were processed

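Whole-number UMI counts per gene and cell were used as deposited, in 4 matrices with 32227 features and no cell annotation. The authors had made them with PIPseeker at sensitivity level 3 on GRCm39, and the annotation version is not given in the sources used here. Cells were gated and ranked as the report states, and their UMIs were summed per library into high and low cells. Sums were compared with edgeR 4.0.16 (quasi-likelihood, TMM factors, filterByExpr, Benjamini-Hochberg adjustment at 0.05) in R 4.3.3. High and low cells were compared with the library as a block, regions without a block, and their interaction with the library as a block. The fits were tested on simulated data. Errors are SE from the fit, and intervals cover counting error only.

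The members, gene lists and tests were chosen with earlier results of these data known. Groups came from the labelled region. Same-numbered libraries came from the same mouse per the series' design, and in both regions the differences between mice correlated across genes (r = 0.492 over 8504 genes in gated cells, 0.336 over 8307 in high cells, genes with a mean of at least 10 CPM). Named genes were the 15 furthest up and 10 furthest down among called genes with at least 20 CPM in the higher group and the same direction in all 4 libraries, without the 5 rule genes and unnamed gene models. The 5 at each end were taken for region and interaction, where both mice had to agree. From each list the 2 to 4 called genes of largest change were used as examples, again at 20 CPM or more, of which 1 is not reported here. Alternatives were DESeq2 1.42.0, RLE factors, no count filter, the replicate block (added or removed), each library left out, the highest 5% or 20%, the lowest 25% or all other cells as comparison, deciles of depth, thinning to 2000 UMIs, a mitochondrial limit of 10% and removal of the 6% of cells with the highest Scrublet scores (scanpy 1.11.5). Scrublet's own threshold marked too few cells to be used, so no doublets were removed in the main comparison. Chosen after seeing the data were deciles of mitochondrial share, the ranking without Slc46a3, and the removal of cells with 3 or more enteroendocrine markers.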

Additional observations from a re-analysis of the deposited data

Results flagged for a closer look

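The difference between high and low cells differed between the regions, by the edgeR interaction test, for the 10 genes given here. The interaction is the ileal minus the jejunal log2 difference, and the values per library are log2 ratios of CPM + 1.

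Of these genes 5 had a more positive difference in the ileum. Gstm3, a glutathione S-transferase, had an interaction of 3.59 ± 0.36 (edgeR adjusted p = 1.59e-04). It fell in jejunal high cells and hardly moved in ileal ones, with 0.17 and -0.07 in the ileal libraries against -2.24 and -3.41 in the jejunal ones. Phgr1, a gene of intestinal epithelium, had an interaction of 2.51 ± 0.56 (edgeR adjusted p = 0.045), with -0.37 and -2.29 in the ileal libraries against -3.45 and -3.28 in the jejunal ones. Fabp1 had an interaction of 2.05 ± 0.17, with 2.32 and 2.07 in the ileal libraries against 0.16 and 0.20 in the jejunal ones. Plp2, a membrane protein, had an interaction of 1.84 ± 0.31 (edgeR adjusted p = 0.00801), with 0.35 and -0.42 in the ileal libraries against -1.30 and -2.12 in the jejunal ones. Chgb had an interaction of 2.05 ± 0.33 (edgeR adjusted p = 0.00498), with -2.01 and -2.89 in the ileal libraries against -4.23 and -4.47 in the jejunal ones. Without cells that held 3 or more enteroendocrine markers the interaction of Chgb was 0.49 (edgeR adjusted p = 0.731).

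The other 5 genes had a more negative difference in the ileum. Gatm had an interaction of -2.04 ± 0.22 and Ephb2 of -1.73 ± 0.24, with the values per library of Ephb2 at -1.65 and -0.71 in the ileal libraries against 0.38 and 0.79 in the jejunal ones. Plaat3, a phospholipase and acyltransferase, had an interaction of -2.03 ± 0.36 (edgeR adjusted p = 0.00996), with -1.89 and -1.38 in the ileal libraries against -0.43 and 0.25 in the jejunal ones. Sh3tc2, a protein of endosomal recycling, had an interaction of -1.74 ± 0.30 (edgeR adjusted p = 0.00885), with 0.43 and 0.10 in the ileal libraries against 1.33 and 2.62 in the jejunal ones. Serpina1b, an antitrypsin gene whose similar copies make its value uncertain, had an interaction of -1.73 ± 0.31 (edgeR adjusted p = 0.00993), with -0.48 and -0.59 in the ileal libraries against 0.96 and 0.90 in the jejunal ones.

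Without jejunum replicate 2 the calls were lost for Phgr1 (edgeR adjusted p = 0.257), Plp2 (0.21), Chgb (0.0815), Plaat3 (0.099) and Sh3tc2 (0.0643). Without ileum replicate 1 the call for Plaat3 was lost (0.0905). Gstm3, Fabp1, Gatm, Ephb2 and Serpina1b kept their calls whichever single library was left out. Within mitochondrial deciles the calls were lost for Phgr1 (edgeR adjusted p = 0.19), Chgb (0.133), Plp2 (0.0803), Plaat3 (0.124) and Sh3tc2 (0.0837). With a mitochondrial limit of 10% they were lost for Phgr1 (0.254), Plp2 (0.0711) and Sh3tc2 (0.0502). DESeq2 did not call Phgr1 (DESeq2 adjusted p = 0.359) or Sh3tc2 (0.238). Over all 18 alternatives the call was kept in 18 for Gstm3, Fabp1 and Ephb2, 17 for Gatm, 15 for Serpina1b, 14 for Plp2, 13 for Sh3tc2, 12 for Plaat3, 11 for Chgb and 9 for Phgr1. These losses were not tested for a cause.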

How the results depend on the processing

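Between high and low cells 4886 genes were called, 1042 without the library as a paired block, 3081 with cells thinned to 2000 UMIs, and 3150 (without jejunum replicate 1) to 4569 with 1 library left out. Between regions in gated enterocytes 1421 genes were called, 3220 by DESeq2, 2 without a count filter, 3038 with the mouse as a paired block, and 81 (without ileum replicate 1) to 1649 with 1 library left out. The count was 440 without ileum replicate 2 and 532 without jejunum replicate 2. Between regions in high cells 726 were called, 1168 by DESeq2, 2058 without a count filter, 1855 with the paired block, and 23 to 2211 with 1 library left out. For the interaction 140 were called, 489 without a count filter, 93 with the highest 5%, 48 when thinned, 32 with a mitochondrial limit of 10%, 89 without the highest doublet scores, 82 against all other gated cells, 30 within mitochondrial deciles and 90 without enteroendocrine marker cells. With 1 library left out it was 33 (without jejunum replicate 2) to 336 (without ileum replicate 2), and 270 without jejunum replicate 1. The causes were not tested.

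Read in cells chosen on the other 4 genes and without the paired block, the log2 fold changes were Apcdd1 2.17 (edgeR adjusted p = 0.0647), Adora2b 1.97 (edgeR adjusted p = 0.228), Nr0b2 1.40 (edgeR adjusted p = 0.415) and Slc46a3 1.31 (edgeR adjusted p = 0.0624), none past the threshold. Every other alternative for the 5 genes kept direction and call. Chgb changed sign, to 0.13, without enteroendocrine marker cells. Over the 25 genes named by rank, 468 of 475 alternative values kept direction and call and 6 lost the call, 5 of them without the block. Over the 87 list examples 1540 of 1651 did and 111 lost the call, 60 of them without the block. The regions were compared in 2 libraries each, from 2 mice, and the mouse block left 1 residual degree of freedom.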
